A study of Mus musculus with 3 samples.

Results

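Chemokine ligands are small secreted or membrane-tethered proteins that draw leukocytes along a gradient by engaging G-protein-coupled receptors on them. Their names follow the spacing of the leading cysteines, as CC (Ccl), CXC (Cxcl), CX3C (Cx3cl) and C (Xcl). In the gut lining, some are made by the epithelium at rest and mark out which lymphocytes home to which segment, some are induced by cytokines or microbial signals, and some come from lymphocytes lodged between the epithelial cells. The members described here were taken by name alone, as every gene of the deposited tables whose symbol starts with Ccl, Cxcl, Cx3cl or Xcl followed by a number. They numbered 39 of 24346 genes, of which 24 were Ccl, 13 Cxcl, 1 Cx3cl and 1 Xcl.

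The values come from RNA sequencing of epithelial cells that EDTA had released from the mouse large intestine and from the lower and upper parts of the small intestine, with 1 library per region. None of the labels used here gives an animal's age, sex or genotype, a treatment other than the cell release, or how many animals a library holds. Of the 3 libraries, the upper small intestinal one alone has a strain entry, which names MC38, a mouse colorectal cancer model, and should that entry hold, any difference from that library is one of strain and region that cannot be told apart. With no replicate of any region there is no test, SD or p-value here, and each difference describes these libraries.

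Levels are given in FPKM, a fragment count per transcript length and library size, so that genes can be compared within a library. Differences between libraries are on the log2(FPKM + 1) scale, where those of low genes come out too small. Genes that reached 1 FPKM in either library of a comparison count as measured there, and those that differed by at least 1 are called higher or lower, a rule of size with no test behind it. The range in brackets after a ratio of FPKM is a 95% Clopper-Pearson interval from implied reads. It holds counting error and says nothing of the spread between animals or preparations. At 1 kb of effective length, 1 FPKM stood for about 9.05, 11.8 and 7.91 reads in the large, lower and upper libraries. Epithelial identity was checked with 9 markers, all above 1 FPKM in all 3 libraries, with Epcam, the epithelial cell adhesion molecule, at 806 FPKM in the large, 879 FPKM in the lower and 666 FPKM in the upper library. Not all were as even. Against the lower library, 2 of the 9 were called lower in the large, Krt20 and Vil1, and none higher. Against the upper library, 3 were called higher in the large, Krt18, Krt19 and Cdx1, and 1 lower, Vil1. The shares of all measured genes called are given below. Intraepithelial lymphocytes and other leukocytes were not removed by any step the labels describe, and their markers are given beside the members they bear on.

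Of the 39 members, 18 reached 1 FPKM in at least 1 library, 11 stayed between 0 and 1 FPKM in all of them and 10 were listed at 0 throughout. Members at 1 FPKM or more numbered 12 in the large, 16 in the lower and 17 in the upper library, and 11 were there in all 3. The summed level of all members was 356 FPKM in the large intestine, 973 FPKM in the lower and 1015 FPKM in the upper small intestine. Few genes made up this sum. In the large intestine Ccl6 alone held 70.3% of it, Ccl28 10.3% and Cx3cl1 7.10%. In the lower small intestine Ccl25 held 42.3%, Ccl5 28.1% and Ccl6 17.6%, and in the upper small intestine the same genes held 52.1%, 24.7% and 11.9%. The small intestinal sums thus lay above that of the large intestine through Ccl25 and Ccl5, while Ccl6 and Ccl28 had their highest level in the large intestine.

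**Figure D1:**
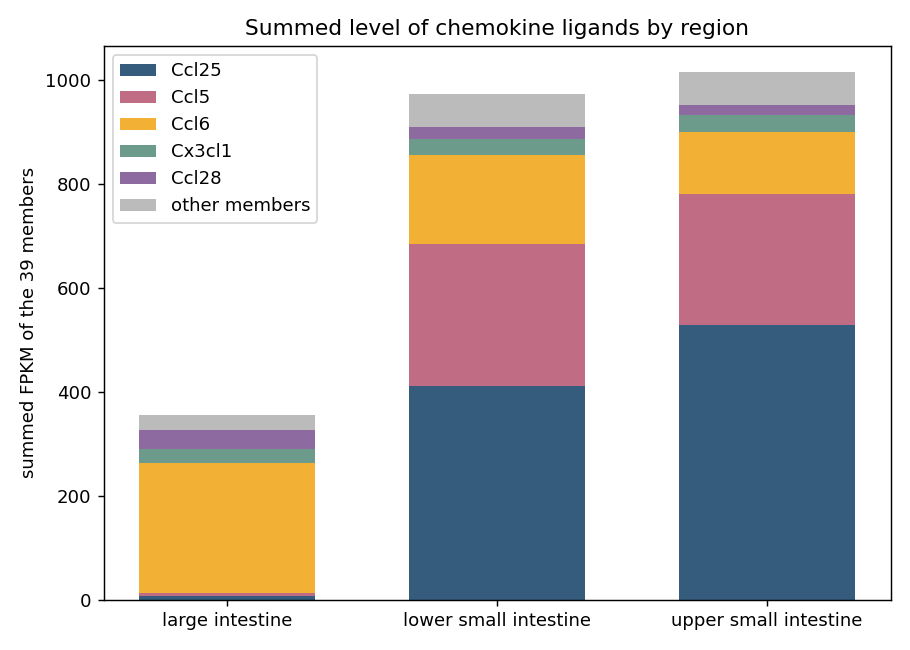
Summed FPKM of the 39 chemokine ligand genes (vertical axis, linear from 0) in the large, lower small and upper small intestinal libraries, stacked by gene, with all genes outside the 5 named ones in grey. The large intestinal column of 356 FPKM is mostly Ccl6, and the small intestinal columns of 973 and 1015 FPKM are mostly Ccl25 and Ccl5.

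By the rule of size, 17 members were measured between the large and the lower small intestine. None was called higher in the large intestine and 9 lower, where 9.75% of all measured genes were called higher and 10.5% lower, 20.2% in either direction. Against the upper small intestine, 1 of 17 measured members was called higher in the large intestine, Ccl6, and 9 lower, where 11.2% of all measured genes were higher and 11.7% lower, 22.9% in either direction. Those called lower against both were Ccl25, Ccl5, Ccl3, Ccl4, Cxcl2 and Cxcl11, 6 in number. The median difference of the measured members was -1.01 against the lower and -1.04 against the upper small intestine, where that of all measured genes was 0.00 in each. The 2 comparisons share the large intestinal library.

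These counts lean on members measured through their higher library alone, which had to differ to some degree. Among 11 members at 1 FPKM or more in both the large and the lower libraries, 4 were called lower (Ccl25, Ccl5, Ccl9 and Cxcl10), against 7.30% of all such genes. Among 12 at 1 FPKM or more in both the large and the upper libraries, 4 were called lower (Ccl25, Ccl5, Ccl20 and Cxcl16), against 8.72% of all such genes. The scale of the libraries also bears on the counts. With each library rescaled to the same sum, the median of all genes shifted by 0.28 against the lower and 0.37 against the upper small intestine. The share of called genes that were higher in the large intestine then went to 63.9% instead of 48.2%, and to 69.0% instead of 49.0%. On that scale, 1 member was higher in the large intestine and 8 were lower when it was set against the lower part. Set against the upper part, it had 3 members higher and 8 lower.

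Between the lower and the upper small intestine, 1 of 18 measured members was called higher in the lower part, Cxcl10, and 1 lower, Ccl20. Of all measured genes 2.92% were higher and 3.92% lower there, 6.84% in either direction, and the median difference was 0.04 for the members and 0.03 for all genes. The shares of all measured genes in the 3 comparisons are also those to set beside the counts of other gene lists below. By counting error, 10 of 18 ratios of lower to upper had an interval that excluded 1, among them those of Cxcl10 and Ccl20. These intervals depend on the transcript length that reads are implied from. With the shortest annotated transcript of each gene the number was 4 (Ccl6, Ccl20, Ccl25 and Cxcl11), and with the longest it was 12, with Ccl5 and Ccl27a added. In the comparisons of the large intestine, the shortest length let the intervals of Ccl24, Cx3cl1, Cxcl9 and Cxcl10 against the lower part, and of Ccl24, Cx3cl1 and Ccl9 against the upper part, include 1. Statements on counting error hold for the length used here, within these limits.

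**Figure D2:**
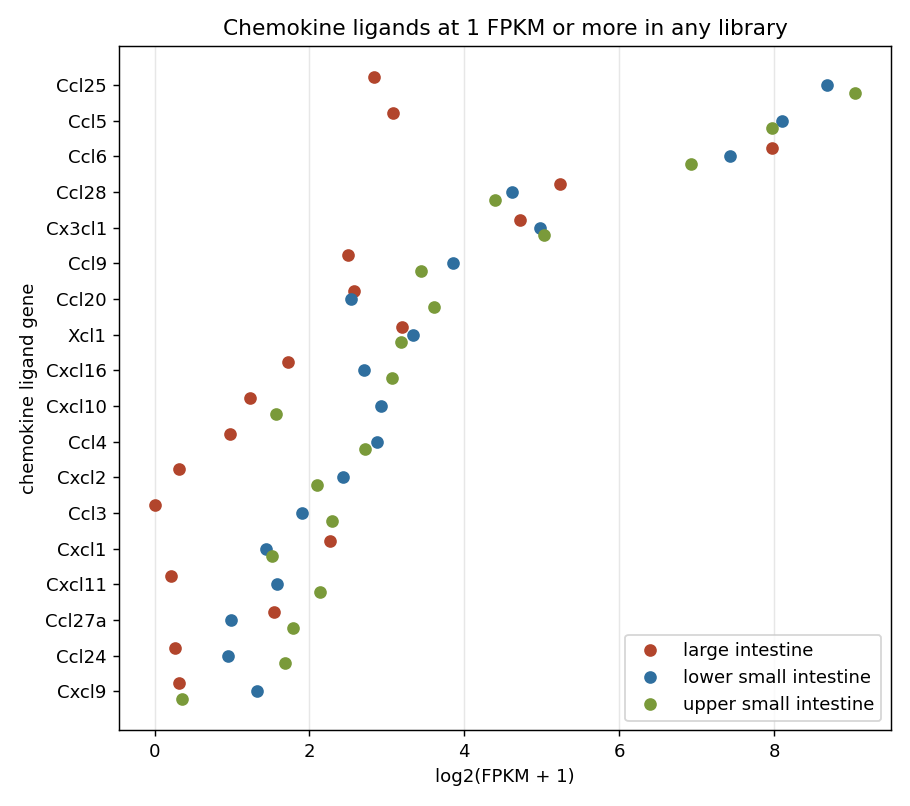
Level of the 18 chemokine ligand genes that reached 1 FPKM in any library, as log2(FPKM + 1) on the horizontal axis, ordered by their highest value, with 1 point per library. Points of the large intestine lie far left of the small intestinal points for Ccl25 and Ccl5 and right of them for Ccl6, Ccl28 and Cxcl1.

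The chemokines known for lymphocyte homing to the gut were divided by segment. Ccl25, the thymus and small intestinal chemokine whose receptor Ccr9 directs T cells to the small bowel, was at 6.13 FPKM in the large intestine, 411 FPKM in the lower and 529 FPKM in the upper small intestine. The small intestinal libraries were both far above the large intestinal one, and just 235 genes of the lower and 202 genes of the upper library had a higher FPKM. The large to lower ratio was 0.0149 (0.0111 to 0.0200), the large to upper ratio 0.0116 (0.00860 to 0.0155) and the lower to upper ratio 0.777 (0.743 to 0.813). Its large intestinal level rested on about 48 implied reads, against about 4176 in the lower and 3589 in the upper library. Ccl25 was thus graded from large to upper, with each neighbouring step beyond counting error. The gene spans 4325210 to 4360020 of chromosome 8 on the plus strand (mm10, ENSMUSG00000023235.14) and overlaps Elavl1 on the other strand, which was at 9.64, 12.9 and 12.2 FPKM in the large, lower and upper libraries.

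RefSeq places a Ccl25 start within the gene as well as 1 at its outer end, and the deposited gene values do not say which was used. The inner one is shown because it is the promoter window of the member with the largest regional difference. It covers chr8:4349338-4349637 (GRCm38.p6, the same assembly as mm10, plus strand), from 250 bases before to 50 bases after the start. Capitals mark a match to CATAAA, a core that CDX homeodomain factors of the gut can bind, and to TATAAA, the TATA box, which begin 192 and 16 bases before the start. CATAAA was in 11.9% of 32851 such windows of all genes and TATAAA in 13.6%, on either strand. Neither was particular to Ccl25. Of 27 members with such windows, 7 had CATAAA in at least 1 of them, Cxcl1 and Cxcl2 included, and 10 had TATAAA. Cdx2 itself was at 82.5 FPKM in the large, 100.2 FPKM in the lower and 81.4 FPKM in the upper library and Cdx1 at 170.3, 100.3 and 62.7 FPKM. The part of CDX factors in the level of Ccl25 was not tested.
Ccl25: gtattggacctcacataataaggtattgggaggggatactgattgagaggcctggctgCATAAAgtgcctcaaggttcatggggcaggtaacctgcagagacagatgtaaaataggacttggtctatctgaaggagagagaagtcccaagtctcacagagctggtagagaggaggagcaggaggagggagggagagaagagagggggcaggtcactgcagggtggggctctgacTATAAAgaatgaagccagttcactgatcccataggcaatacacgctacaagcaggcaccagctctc

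Ccl28, a mucosal chemokine that attracts IgA plasma cells through Ccr10 and eosinophils through Ccr3, ran the other way. It was at 36.7 FPKM in the large intestine, 23.5 FPKM in the lower and 19.97 FPKM in the upper small intestine, and was thus the second most abundant member of the large intestine. The large to lower ratio was 1.56 (1.44 to 1.70), the large to upper ratio 1.84 (1.66 to 2.04) and the lower to upper ratio 1.18 (1.06 to 1.31). Each step was beyond counting error, the last of them not with the shortest annotated transcript, and none reached the rule of size, with differences of 0.62, 0.85 and 0.22. Rescaled to the same sum, its difference from the upper library was 1.24 and passed the rule. Ccl28 lies on chromosome 13 at 119623819 to 119654359 (plus strand). Ccl27a, the closest relative of Ccl28 and a skin chemokine that also uses Ccr10, was at 1.90, 0.983 and 2.47 FPKM in the large, lower and upper libraries. Its intervals included 1 in all 3 comparisons, and its difference of -0.26 from the upper library became 0.02 on the scale of equal sums. Its annotation overlaps Il11ra1 on the other strand and it has a near-identical copy, Ccl27b, listed at 0, so its reads are uncertain.

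Ccl20, which attracts Ccr6-bearing B cells, dendritic cells and T cells and is made by the epithelium over lymphoid follicles, was highest in the upper small intestine. It was at 4.96 FPKM in the large intestine, 4.81 FPKM in the lower and 11.2 FPKM in the upper small intestine. The large and lower libraries did not differ beyond counting error, with a ratio of 1.03 (0.592 to 1.78), and both lay below the upper library, with ratios of 0.441 (0.267 to 0.728) and 0.429 (0.27 to 0.683). Its differences from the upper library of -1.04 and -1.07 were just past the rule of size, and both were short of it on the scale of equal sums, at -0.68 and -0.97. Markers of M cells, the specialised cells of follicle epithelium, summed to 33.0 FPKM in the large, 40.0 FPKM in the lower and 15.9 FPKM in the upper library over 6 genes, and Gp2, their defining marker, stayed below 1 FPKM in all 3. Anxa5 and Marcksl1 made up most of these sums, and the other 4 markers were lowest in the large library, so the list has no single order to set beside Ccl20.

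Ccl6 was the most abundant member of the large intestine and was found at high level in all regions. This CC chemokine of rodents, a ligand of Ccr1, is known mainly from macrophages. It was at 250.5 FPKM in the large intestine, 171 FPKM in the lower and 120.4 FPKM in the upper small intestine, and 320, 494 and 794 genes of those libraries had a higher FPKM. The large to lower ratio was 1.47 (1.39 to 1.55), the large to upper ratio 2.08 (1.94 to 2.23) and the lower to upper ratio 1.42 (1.32 to 1.52). Macrophage and monocyte markers were mostly lower in the large intestine, where Ccl6 was highest. Of 8 measured against the lower small intestine, 6 were lower and 1 higher in the large intestine (median -1.56), and of 6 measured against the upper, 2 were lower and 1 higher (median -0.86). Between the lower and the upper small intestine 2 of 8 were higher and none lower (median 0.53), the direction that Ccl6 had there too. Their summed level over 11 genes was 20.2, 41.1 and 22.5 FPKM in the large, lower and upper libraries. Most of the large intestinal sum was Cd14, at 15.7 FPKM, a coreceptor for lipopolysaccharide that was at 6.07 FPKM in the lower and 5.61 FPKM in the upper library. Adgre1, the F4/80 antigen of macrophages, was at 0.036, 0.664 and 0.578 FPKM and Csf1r at 0.119, 1.47 and 0.65 FPKM. Fcgr1 was at 0, 0.071 and 0.053 FPKM, so it and Adgre1 stayed below 1 FPKM in all 3 libraries. Itgam, at 0.853, 11.8 and 3.56 FPKM, and Lyz2, at 1.16, 7.72 and 5.47 FPKM, were called lower in the large intestine against both parts. The part of macrophages in the level of Ccl6 was not tested.

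Ccl9, the next gene along the chromosome and also a ligand of Ccr1, did not share the order of Ccl6. It was at 4.63 FPKM in the large intestine, 13.5 FPKM in the lower and 9.81 FPKM in the upper small intestine. The large library was the lowest, with ratios of 0.343 (0.279 to 0.423) to the lower and 0.472 (0.375 to 0.594) to the upper library, and was called lower against the lower library alone. Both genes lie in a cluster of 5 members on chromosome 11, from 83525778 to 83664683 (mm10), in the order Ccl5, Ccl9, Ccl6, Ccl3 and Ccl4. All 5 reached 1 FPKM in some library, and Ccl6 was the only 1 of them above its small intestinal levels in the large intestine. The other chromosome 11 cluster, from 82035571 to 82305690, holds the monocyte and eosinophil chemokines Ccl2, Ccl7, Ccl11, Ccl12, Ccl8 and Ccl1, and none of these 6 reached 1 FPKM in any library.

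**Figure D3:**
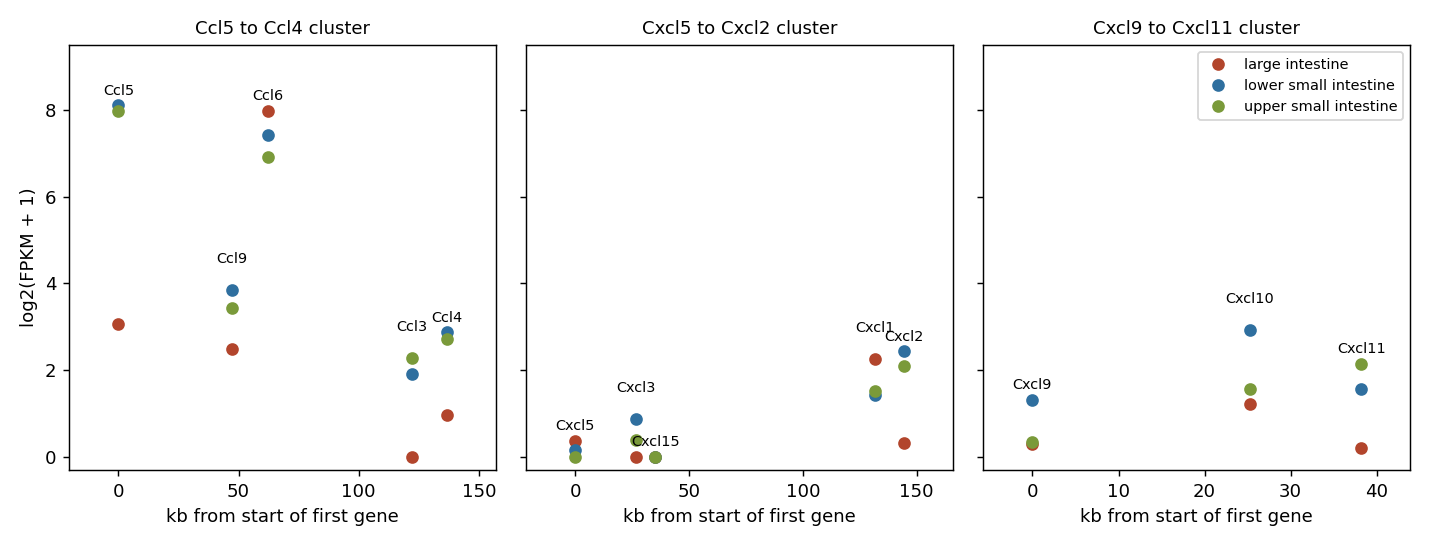
Level of the members of 3 gene clusters as log2(FPKM + 1), placed by distance in kb from the start of the cluster's leftmost gene, with 1 point per library. In the left panel Ccl6 is highest in the large intestine, at 250.5 FPKM, between neighbours that are lowest there, and in the middle panel Cxcl1 is highest and its neighbour Cxcl2 lowest in the large intestine.

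Ccl5, Ccl4, Ccl3 and Xcl1 are chemokines that cytotoxic T cells and NK cells make. Ccl5, which attracts T cells and monocytes, was at 7.43 FPKM in the large intestine, 273 FPKM in the lower and 251 FPKM in the upper small intestine. Both small intestinal libraries were far above the large one and did not differ from each other beyond counting error. The large to lower ratio was 0.0272 (0.0167 to 0.0408), the large to upper ratio 0.0296 (0.0181 to 0.0445) and the lower to upper ratio 1.09 (0.987 to 1.20). Ccl4, a macrophage inflammatory protein, was at 0.965, 6.32 and 5.55 FPKM in the large, lower and upper libraries, with ratios of the large library of 0.153 (0.0397 to 0.431) to the lower and 0.174 (0.0434 to 0.522) to the upper. Ccl3, a relative of Ccl4 that uses Ccr1, was listed at 0 in the large intestine and was at 2.74 FPKM in the lower and 3.88 FPKM in the upper small intestine, so no ratio was formed. The 3 genes were thus low or at 0 in the large intestine and at like levels in the small intestinal libraries.

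T cell markers had the same order. All 13 markers measured against the lower small intestine were lower in the large intestine (median -1.98), as were 9 of 10 against the upper (median -3.03), and their summed level was 15.96 FPKM in the large, 580.0 FPKM in the lower and 573 FPKM in the upper library. The granzyme genes Gzma and Gzmb were at 3.09, 334 and 357 FPKM and 2.17, 141 and 105 FPKM, Cd3g of the T cell receptor complex at 2.68, 29.4 and 37.4 FPKM, and Cd8a at 0.750, 15.9 and 17.4 FPKM. Markers of other lymphocytes were higher in the small intestinal libraries as well. B and plasma cell markers summed to 0.097 FPKM in the large, 31.0 FPKM in the lower and 30.2 FPKM in the upper library. Jchain, the joining chain of secreted antibodies, made up most of both small intestinal sums. Of these markers, 5 of 5 measured were lower in the large than the lower library. None of the list reached 1 FPKM in the large library, so no other direction was possible. Nkg7, a granule gene of NK cells and cytotoxic T cells, was at 1.98, 23.5 and 21.2 FPKM. The part of lymphocyte number in the levels of Ccl5, Ccl4 and Ccl3 was not tested, and in bulk libraries fewer cells of a type and less RNA per cell cannot be told apart. Xcl1, which draws Xcr1-bearing dendritic cells, had no such order. It was at 8.16 FPKM in the large intestine, 9.15 FPKM in the lower and 8.11 FPKM in the upper small intestine, on about 24, 35 and 21 implied reads. The large to lower ratio was 0.892 (0.51 to 1.55) and the large to upper ratio 1.01 (0.532 to 1.89), and its difference of -0.15 from the lower library became 0.13 on the scale of equal sums. A difference of Xcl1 was thus not detectable at this depth, and one as large as that of Ccl5 or Ccl4 lay outside both intervals. Its annotation overlaps Gm20743 on the other strand, at 0.553 FPKM or less.

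The membrane-tethered members were expressed in every region. Cx3cl1, or fractalkine, whose receptor Cx3cr1 is carried by macrophages and some lymphocytes, was at 25.3 FPKM in the large intestine, 30.6 FPKM in the lower and 31.7 FPKM in the upper small intestine. It was the most even of the abundant members, with a large to lower ratio of 0.826 (0.751 to 0.908), a large to upper ratio of 0.799 (0.72 to 0.885) and a lower to upper ratio of 0.967 (0.882 to 1.06). Its differences of -0.27, -0.31 and -0.05 became 0.03, 0.08 and 0.05 on the scale of equal sums, so their sign depends on the scale. Cxcl16, which binds Cxcr6 on T cells and also takes up oxidised lipoprotein, was at 2.29, 5.52 and 7.39 FPKM in the large, lower and upper libraries. The ratio of large to lower was 0.415 (0.299 to 0.573), that of large to upper 0.309 (0.222 to 0.430) and that of lower to upper 0.746 (0.593 to 0.939), so each step from large to upper lay beyond counting error, the step between the small intestinal libraries not with the shortest annotated transcript. Its difference from the lower library, -0.99, was just short of the rule of size, and that from the upper library, -1.35, was past it.

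**Figure D4:**
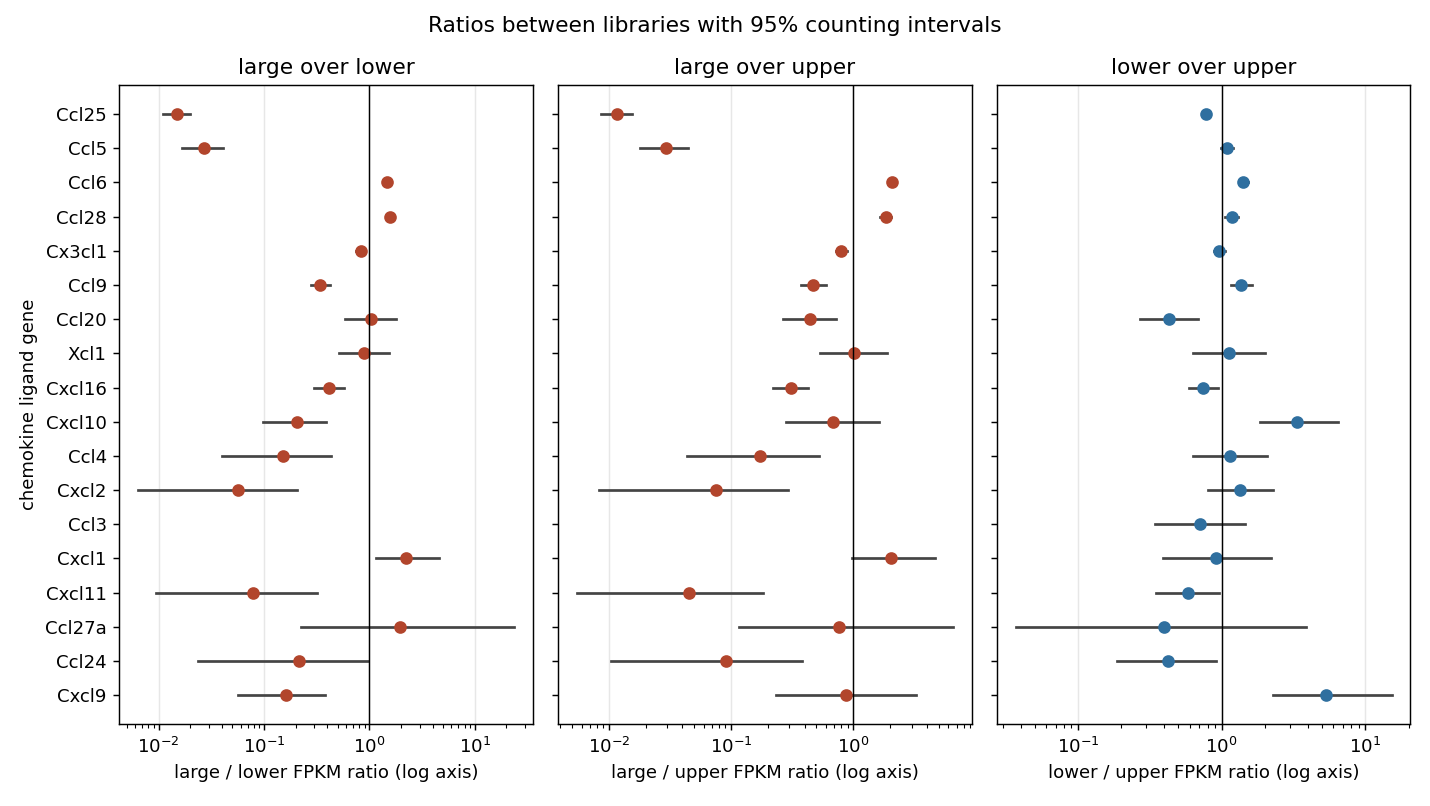
FPKM ratios between libraries on a log axis for the 18 members at 1 FPKM or more in any library, with points for the ratio and lines for its 95% Clopper-Pearson counting interval. Ccl3 has no point against the large library, where it was listed at 0. Ccl25 and Ccl5 lie furthest left in both panels of the large intestine, and Ccl6 and Ccl28 lie right of 1 with short intervals.

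The neutrophil-attracting CXC chemokines, which act through Cxcr2, did not move as a group. Cxcl1 was at 3.83 FPKM in the large intestine, 1.70 FPKM in the lower and 1.86 FPKM in the upper small intestine, with a large to lower ratio of 2.25 (1.16 to 4.60) and a large to upper ratio of 2.05 (0.986 to 4.63). Its differences of 0.84 and 0.75 were short of the rule of size and past it at 1.07 and 1.06 on the scale of equal sums. Cxcl2, which lies beside it, was at 0.249, 4.42 and 3.30 FPKM in the large, lower and upper libraries, on about 2, 47.5 and 23.7 implied reads. Its ratios of the large library were 0.0564 (0.00641 to 0.208) to the lower and 0.0755 (0.00834 to 0.293) to the upper. The large intestine thus had the highest Cxcl1 and the lowest Cxcl2. Cxcl3 was at 0, 0.83 and 0.31 FPKM, Cxcl5 at 0.301, 0.116 and 0 FPKM, and Cxcl15 was listed at 0 throughout. All 5 lie within 147 kb on chromosome 5, from 90759360 to 90905938. Neutrophil markers were at or near 0, with 4 of 5 listed at 0 in the large library and a summed level of 0.129, 2.29 and 0.511 FPKM in the large, lower and upper libraries.

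Promoter windows of RefSeq were at hand for 27 of the 39 members, some with several starts. A form of the site bound by NF-kappaB, the transcription factor that many inflammatory signals act through, was searched on both strands as GGG, any 3 bases and TTCC, where a site can match on both and matches can overlap. It was in the windows of 7 of these 27 genes (Ccl1, Ccl9, Ccl20, Cxcl1, Cxcl2, Cxcl3 and Cxcl10) and in 5.56% of 32851 windows of all genes. For every motif here, a member counts if any of its windows matched, over 33 windows in all. The share of all genes is per window, so the 2 are not like measures. The windows of Cxcl1 and Cxcl2 are shown because the neighbours had opposite orders and both hold this motif, in capitals. They cover chr5:90890995-90891294 and chr5:90903649-90903948 (GRCm38.p6, plus strand). The matches nearest the start begin 70 bases before it in Cxcl1 and 78 bases before it in Cxcl2.
Cxcl1: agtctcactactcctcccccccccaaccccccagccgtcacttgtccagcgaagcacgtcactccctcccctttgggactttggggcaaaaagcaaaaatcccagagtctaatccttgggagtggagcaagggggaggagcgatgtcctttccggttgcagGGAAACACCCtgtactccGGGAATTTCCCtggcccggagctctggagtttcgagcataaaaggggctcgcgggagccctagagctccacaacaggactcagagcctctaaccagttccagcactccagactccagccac
Cxcl2: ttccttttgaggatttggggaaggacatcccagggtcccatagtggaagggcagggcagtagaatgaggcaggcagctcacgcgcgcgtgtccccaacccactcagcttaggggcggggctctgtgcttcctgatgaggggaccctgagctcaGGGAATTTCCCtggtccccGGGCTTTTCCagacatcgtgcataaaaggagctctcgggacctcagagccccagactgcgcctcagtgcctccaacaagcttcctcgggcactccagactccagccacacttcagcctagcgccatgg

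The window of Ccl20, at chr1:83116516-83116815 (plus strand), holds 1 such match, 80 bases before the start and in capitals, and is shown because Ccl20 was the member called lower in the lower than in the upper small intestine.
Ccl20: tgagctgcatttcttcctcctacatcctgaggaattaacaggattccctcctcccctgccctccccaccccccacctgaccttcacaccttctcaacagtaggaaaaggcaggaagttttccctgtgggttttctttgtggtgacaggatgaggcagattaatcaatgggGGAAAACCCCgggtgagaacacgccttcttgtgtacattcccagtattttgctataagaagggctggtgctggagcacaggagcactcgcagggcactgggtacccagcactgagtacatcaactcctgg

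In these libraries, 13 genes known to be inducible by NF-kappaB were counted, which does not measure the activity of the factor. Set against the lower small intestine, the large intestine had none called higher and 5 lower (median -0.76), and against the upper none higher and 1 lower (median -0.55). The 5 were 38.5% of the list, where 10.5% of all measured genes were lower. The 1 was 7.69% of it, below the 11.7% of all measured genes. Between the lower and the upper small intestine none of the 13 was called. Zc3h12a, which degrades inflammatory mRNAs, was at 11.5, 44.6 and 23.8 FPKM in the large, lower and upper libraries, and Bcl3, a nuclear partner of NF-kappaB, at 13.4, 36.5 and 24.1 FPKM. Nfkbia, the inhibitor that NF-kappaB itself induces, was at 62.6, 129 and 113 FPKM, Nfkbiz at 26.5, 54.8 and 47.2 FPKM and the adhesion molecule gene Icam1 at 0.468, 2.92 and 2.15 FPKM. Cxcl2 was likewise lowest in the large and highest in the lower library. Other genes of the list had other orders, among them Sod2, a mitochondrial superoxide dismutase, at 26.0, 18.4 and 24.4 FPKM, with the large library highest as for Cxcl1. A tie of Cxcl1 or Cxcl2 to NF-kappaB was not tested.

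The interferon-inducible ligands of Cxcr3, a receptor of activated T cells, were low, with their lowest values in the large intestine. For Cxcl10 and Cxcl9 the large and upper libraries did not differ beyond counting error. Cxcl10 was at 1.35 FPKM in the large intestine, 6.60 FPKM in the lower and 1.97 FPKM in the upper small intestine, so the lower library stood above both others. The ratio of large to lower was 0.204 (0.0981 to 0.391), that of large to upper 0.683 (0.282 to 1.63) and that of lower to upper 3.35 (1.86 to 6.42). Cxcl9 had the same shape at 0.243, 1.496 and 0.279 FPKM, with a lower to upper ratio of 5.36 (2.28 to 15.3) on about 48 and 6 implied reads. Its large to upper ratio was 0.871 (0.234 to 3.27), on about 6 implied reads in each. Cxcl11 differed from both, being highest in the upper library at 0.156, 1.99 and 3.42 FPKM, with a lower to upper ratio of 0.582 (0.348 to 0.953) and a large to upper ratio of 0.0457 (0.00551 to 0.183). The annotation lists Cxcl11 as a polymorphic pseudogene, a gene intact in some mouse strains and broken in others, and its mRNA level does not say whether protein is made. The 3 genes lie within 44.1 kb on chromosome 5, from 92321347 to 92365485, and differ in which small intestinal library was higher.

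The promoter window of Cxcl10 is shown because it was the member called higher in the lower than in the upper small intestine. It covers chr5:92348840-92349139 (GRCm38.p6, minus strand, written 5′ to 3′), and capitals mark the NF-kappaB motif and GAAA, any 2 bases and GAAA, a core of the interferon-stimulated response element. This second motif begins 213 bases before the start and was in 3.44% of all windows and in those of 3 of the 27 members, Cxcl10, Cxcl14 and Ccl19.
Cxcl10: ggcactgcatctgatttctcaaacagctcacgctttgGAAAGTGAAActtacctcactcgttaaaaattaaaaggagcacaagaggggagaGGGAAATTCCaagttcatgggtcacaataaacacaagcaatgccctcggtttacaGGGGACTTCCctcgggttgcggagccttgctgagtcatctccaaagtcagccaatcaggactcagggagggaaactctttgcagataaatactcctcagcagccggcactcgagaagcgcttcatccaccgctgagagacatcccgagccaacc

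Genes induced by interferon-gamma were lower in the large intestine and in part higher in the lower than in the upper small intestine. Of 18 measured, the large intestine had 15 lower and none higher against the lower part (median -1.71), and 8 lower and 2 higher against the upper part (median -0.90). Between the lower and the upper small intestine 6 were higher and none lower (median 0.69). Ido1, which breaks down tryptophan, was at 0.924, 36.0 and 12.4 FPKM in the large, lower and upper libraries, and Ciita, which switches on MHC class II genes, at 0.769, 18.0 and 7.62 FPKM. Psmb9, a subunit of the immunoproteasome, was at 18.6, 152 and 118 FPKM, and Tap1, which carries peptides to MHC class I, at 11.3, 79.7 and 51.2 FPKM. The genes named here were highest in the lower library, as were Cxcl9 and Cxcl10, whereas Cxcl11 was highest in the upper library. T cells are a source of interferon-gamma. Of 13 T cell markers, 1 was called higher in the lower than in the upper part, Cd4 at 2.24 and 0.478 FPKM, and none lower (median 0.06). The part of T cells in the levels of these genes was not tested.

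Of the remaining members, Ccl24, or eotaxin-2, an eosinophil attractant through Ccr3, was at 0.202 FPKM in the large intestine, 0.933 FPKM in the lower and 2.21 FPKM in the upper small intestine, on about 2, 12 and 19 implied reads. The large to upper ratio was 0.0916 (0.0104 to 0.381) and the lower to upper ratio 0.423 (0.187 to 0.915), so the order from large to upper held beyond counting error with the length used, and not with the shortest annotated transcript. The 11 members between 0 and 1 FPKM were Ccl2, Ccl7, Ccl8, Ccl11, Ccl17, Ccl22, Cxcl3, Cxcl5, Cxcl12, Cxcl13 and Cxcl14, the highest of them Cxcl3 at 0.83 FPKM. They include the stromal chemokine Cxcl12, at 0.306 FPKM or less, and the B cell chemokine Cxcl13, at 2 implied reads in each library. Listed at 0 throughout were Ccl1, Ccl12, Ccl19, Ccl21a, Ccl21b, Ccl21c, Ccl26, Ccl27b, Cxcl15 and Cxcl17. Among these are the lymph node chemokines Ccl19 and Ccl21, whose copies are near-identical and can share reads.

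The receptors of the members were scarce in all 3 libraries. Of 24 chemokine receptor genes, none reached 1 FPKM in the large intestine, and 6 did in each of the small intestinal libraries, with a summed level of 5.81 FPKM in the large, 27.2 FPKM in the lower and 15.3 FPKM in the upper library. Of 6 measured against the lower small intestine, 5 were called lower in the large intestine, and the same number of 6 against the upper. All of these were measured through their small intestinal level alone, so a call of higher in the large intestine was not possible. Ccr9, the receptor of Ccl25, was at 0.132, 2.73 and 1.44 FPKM in the large, lower and upper libraries. Cxcr6, the receptor of Cxcl16, was at 0.194, 3.69 and 2.01 FPKM, Cxcr4, that of Cxcl12, at 0.883, 5.08 and 2.19 FPKM and Ccr7, that of Ccl19 and Ccl21, at 0, 1.52 and 0.219 FPKM. Ccrl2, an atypical receptor, was at 0.688, 2.29 and 2.79 FPKM. These receptors had their lowest level in the library with the lowest T cell marker sum, and the part of leukocyte number in them was not tested.

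**Figure D5:**
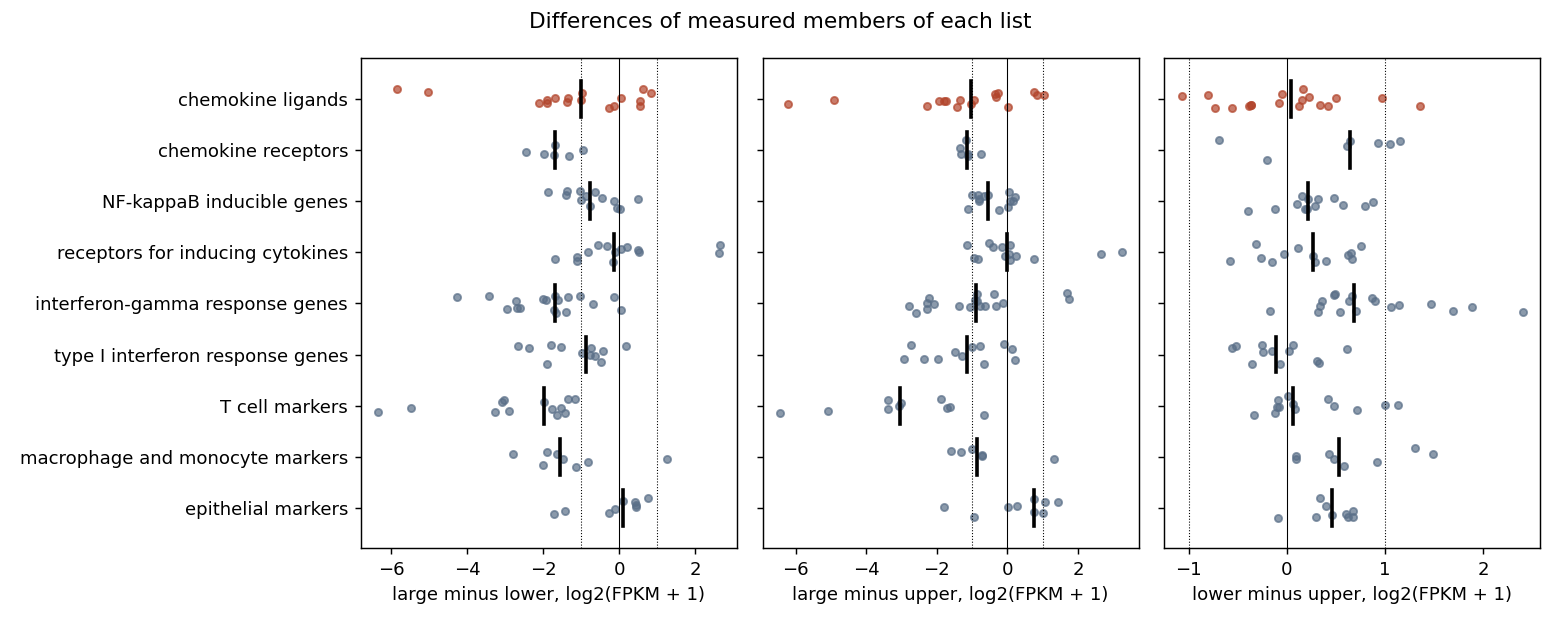
Differences of log2(FPKM + 1) between libraries for the measured members of 9 gene lists, with 1 point per gene, a black bar at the median and dotted lines at the rule of size of 1. Chemokine ligands (top, red) spread to both sides, with medians of -1.01, -1.04 and 0.04 in the panels from left to right, and T cell markers lie left of 0 in both comparisons with the large intestine.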

How the data were processed

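RNA from epithelial cells of 3 mouse gut regions was sequenced as stranded mRNA libraries, per the labels' protocols. The deposited tables hold 1 value per gene and library, taken as FPKM because Cufflinks 2.2.1 is the only quantifier among the tools named per the submitters' processing notes (with TopHat2 2.0.13, Bowtie2 2.2.3 and SAMtools 0.1.19; build mm10), while the file headers name no unit. The annotation, filters and strand setting were not given in the sources used here. As a ratio to the geometric mean of the libraries, the median gene was at 1.00, 1.01 and 0.999 in the large, lower and upper library, so on the deposited scale a shift of most genes one way would not show.

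Transcript lengths and coordinates came from GENCODE M21 (GRCm38), which held 38 of the 39 members. FPKM multiplied by transcript length less 200 nt fell on multiples of 0.1105 in the large, 0.0845 in the lower and 0.1265 in the upper library. Within 0.15 of a whole read were 76.7%, 76.2% and 77.5% of low values in genes with a single RefSeq transcript, where members were left out, and 21 of 29 member values under 10 reads. Steps and offset were fitted to these values. The steps stand for about 9000000, 11800000 and 7900000 reads, uncertain if libraries were rescaled. Implied reads, rounded, used the shortest transcript with a RefSeq mRNA, a length chosen after the data were seen. Intervals treat reads as independent, which reads that carry no molecular identifier need not be. Python 3.11.15, pandas 2.3.3 and SciPy 1.17.1 were used. The calling rule and the intervals were tested on simulated data.

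Members and gene lists were chosen with earlier results of these data known. Every member at 1 FPKM or more is named, and from other lists up to 6 genes past the rule of size, by largest difference. Epcam, Cdx1, Cdx2, Cd4, Oas1a, Gp2, Anxa5, Marcksl1, Sod2, the macrophage markers and genes that overlap members were named after their values were seen. For the marker lists of the remaining cell types, the summed FPKM in the large, lower and upper libraries was 31.9, 41.0 and 54.4 for NK cells and ILCs, 0.274, 4.81 and 5.02 for dendritic cells, 18.0, 9.14 and 5.56 for mast cells and eosinophils, 8.48, 16.2 and 9.97 for fibroblasts, 3.20, 4.48 and 2.92 for endothelium and 7.85, 2.78 and 1.75 for smooth muscle. Pf4 and Ppbp, chemokines named outside the rule, were at 0.221 FPKM or less. Motifs for GAS, GATA and HNF4 were searched too and matched 2, 5 and 0 of the 27 member genes.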

Additional observations from a re-analysis of the deposited data

How the results depend on the processing

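With 1 library per region no replicate could be left out, and no paired analysis was possible because each region has 1 library. No member called by size changed sign under the settings tried. Counts of members called did move. With a pseudocount of 0.1, the large intestine had 1 higher against the lower and 2 against the upper small intestine, and 2 were higher and 3 lower in the lower than in the upper. With a pseudocount of 5, 2 were lower in the large intestine in each comparison, Ccl25 and Ccl5, and 0 were called in either direction between the lower and the upper. A filter of 5 FPKM left 5 lower in each comparison of the large intestine. With equal sums, 1 was higher in the large intestine against the lower part and 3 against the upper, and 0 were lower in the lower than in the upper part. A 3-fold rule left 0 higher against the upper small intestine and 0 in either direction between the small intestinal parts. Both remaining settings were chosen after the data were seen. With short RNA names left out and equal sums, 1 and 2 members were higher in the large intestine against the lower and upper parts, and with 1 FPKM required in both libraries 4 were lower in each. Without a filter, with equal upper quartiles or without short RNA names alone, the counts stayed within 1.5 times. Between the lower and the upper libraries, 10 member ratios excluded 1, against 4 with the shortest and 12 with the longest annotated transcript. With 1 library per region, depth limits members under 10 reads.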

Other observations

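Receptors for the cytokines that induce epithelial chemokines were expressed in every region, with 14 of 14 at 1 FPKM or more in the large, 13 in the lower and 12 in the upper library. Against the lower part the large intestine had 2 of them higher and 3 lower (median -0.14), and against the upper part 2 higher and 1 lower (median 0.00). Il17re, a receptor chain for the epithelial cytokine IL-17C, was at 11.9 FPKM in the large intestine, 1.11 FPKM in the lower and 0.371 FPKM in the upper small intestine. Il1r1, the receptor of interleukin-1, was at 5.80, 0.093 and 0.083 FPKM in the same order. Lower in the large intestine were Il4ra, at 4.66, 17.2 and 9.81 FPKM, Tnfrsf1a, a receptor of tumour necrosis factor, at 23.7, 52.4 and 53.6 FPKM, and Il22ra1 at 9.90, 22.5 and 18.3 FPKM. Cxcl1 was highest in the large intestine, as Il17re and Il1r1 were, but was not called in either comparison. A tie between Cxcl1 and these receptors was not tested.

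Among 12 type I interferon response genes, the large intestine had 5 lower against the lower part (median -0.87), 6 lower against the upper part (median -1.14) and none higher. None was called between the lower and the upper small intestine (median -0.11), where 6 of 18 genes of the interferon-gamma list were higher in the lower part. Usp18 was at 0.837, 10.7 and 12.9 FPKM in the large, lower and upper libraries and Isg15 at 10.5, 58.7 and 75.3 FPKM, so their highest level was in the upper library, as was that of Cxcl11. Other genes of the list had other orders, among them Ifi44 at 0.969, 4.76 and 4.51 FPKM and Oas1a at 22.3, 19.5 and 19.2 FPKM. A tie of Cxcl11 to this list was not tested. Among enzymes that process chemokines, Dpp4, which clips the start of several of them, was at 12.4, 158 and 184 FPKM. Adam10 and Adam17 shed Cx3cl1 and Cxcl16 from the membrane. Adam10 was at 29.1, 41.3 and 35.1 FPKM, Adam17 at 8.15, 9.96 and 9.55 FPKM, and neither was called in any comparison.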
